A study of Mus musculus with 12 samples.

Results

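The plasminogen activator genes are described here across 4 groups of mouse PYMT cells: Plau, Plat, Plaur, Serpine2 and Serpinb2. They were chosen by gene name, with earlier results of these data known. All 5 were among the 54347 genes of the count table and among the 15319 genes with enough reads to be tested. PYMT is the name of a mouse mammary tumour model driven by the polyomavirus middle T antigen; the labels call the cells a line and say nothing of how many clones it holds. The cells were kept in matrigel, a basement membrane gel. They received TGFB2, BMP4 or both ligands (BMP4-TGFB2) at 5 ng/mL for 3 days, or were labelled NT, taken here as the group without ligand. The medium was then changed and all groups were harvested 2 days later, so every level was measured 5 days after the start, and the labels do not say whether the new medium held ligand. Each group had 3 libraries, described in the labels as biological replicates, and the study asked which programs linked to dormancy the ligands induce.

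Plasminogen activators are serine proteases that cut the inactive precursor plasminogen into plasmin, a protease that digests fibrin and other matrix proteins and activates some matrix metalloproteinases and growth factors. Urokinase (Plau) works largely at the cell surface, bound to its receptor (Plaur), while tissue plasminogen activator (Plat) works best on fibrin. Serpins such as protease nexin 1 (Serpine2) and plasminogen activator inhibitor type 2 (Serpinb2) block the activators, and endocytic receptors remove the blocked complexes. In mammary tumours the system is studied for its part in invasion.

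Libraries held 28543062 to 42167651 estimated counts. Genes known to answer the ligands moved: Smad7, a feedback inhibitor, rose by 1.63 (log2) with TGFB2 and 1.57 with BMP4, and Id1, a BMP target, rose by 1.12 with BMP4 (edgeR adjusted p = 0.00265). The epithelial markers Epcam, Krt8 and Krt18 each had at least 747 TPM in the mean of every group and did not pass against NT. Cdh1 and Krt19 fell with TGFB2 (edgeR adjusted p = 0.0473 and 0.0442) and with both ligands (0.00295 and 0.0458), and Krt14 rose with BMP4 (0.00891) and with both (0.0118). TPM, a transcript's share scaled to a fixed library total, corrects for transcript length and depth, so genes can be compared on it. Of 7 epithelial markers, 6 had a group mean of at least 1 TPM everywhere, and their summed level ran from 3650 to 4720 TPM over the 12 libraries. Summed endothelial markers reached at most 1.94 TPM. Of 9 leukocyte markers, 6 or 7 lay under 1 TPM in each group. Ptprc and Adgre1 had group means of 0.197 TPM or less, while those of Cd68 were 3.68 to 7.44 TPM. Cd14 made up most of the sum. In bulk RNA, fewer cells of a type and less RNA per cell cannot be told apart.

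Promoter sequence is shown for the members that could be matched in the RefSeq table (GRCm38.p6), which were 3 of the 5; Plau and Plat are named only. The 250 bases before each start were searched on both strands for the letters CAGAC (SMAD box), GTCTAGAC (SMAD palindrome), GGCGCC (GC-rich SMAD element), TGANTCA (AP-1), CACCTG (E-box of SNAIL and ZEB) and TATAAA (the box of that name). Serpinb2 and Plaur are printed whole, because the first was the member that rose with BMP4 and the second the receptor of the member that rose most with TGFB2. Capitals mark the matches. The Serpinb2 window is chr1:107511173-107511422 on the plus strand.
Serpinb2: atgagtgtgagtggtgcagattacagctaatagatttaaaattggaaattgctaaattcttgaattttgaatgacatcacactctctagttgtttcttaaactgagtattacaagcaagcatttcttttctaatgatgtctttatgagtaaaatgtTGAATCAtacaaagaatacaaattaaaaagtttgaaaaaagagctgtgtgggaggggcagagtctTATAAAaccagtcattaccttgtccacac
The Plaur window is chr7:24462233-24462482 on the plus strand.
Plaur: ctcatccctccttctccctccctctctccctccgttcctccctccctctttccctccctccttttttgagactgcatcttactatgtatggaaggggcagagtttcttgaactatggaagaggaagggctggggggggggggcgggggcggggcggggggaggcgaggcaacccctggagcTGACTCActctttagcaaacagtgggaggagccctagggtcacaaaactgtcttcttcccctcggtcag
For Serpine2, 29 bases hold both of its matches, at chr1:79858870-79858898 on the minus strand. The RefSeq start used for this window lies inside the GENCODE gene, and the window overlaps 2 GENCODE exons of Serpine2, so the stretch is not upstream of every start of the gene.
Serpine2: GGCGCCgcacctcgagcccggcgcGTCTG
The Serpinb2 window held TGAATCA 94 bases and TATAAA 29 bases before the start, with 32.4% G and C. The Plaur window held TGACTCA 69 bases before the start, with 59.6% G and C against a median of 52.4% over all windows. The Serpine2 stretch held GGCGCC 233 bases and GTCTG, the SMAD box on the other strand, 209 bases before the start. Printed matches did not overlap. Of 32851 windows of this length, 6.75% held TGANTCA, 12.4% TATAAA, 9.59% GGCGCC, 42.2% CAGAC, 17.2% CACCTG and 0.167% GTCTAGAC. RefSeq lists a second Serpinb2 start, whose window holds the same TGAATCA and TATAAA further from it. These matches describe letters, and no binding was measured.

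Serpine2 was the most abundant of the 5 transcripts, with a group mean of 245 TPM in NT, followed by Plaur at 35.1, Plau at 7.24, Plat at 0.902 and Serpinb2 at 0.303 TPM. That order held in TGFB2 and BMP4-TGFB2, while in BMP4 Serpinb2 (3.68 TPM) stood above Plat (2.04 TPM). The ranges of Plat and Serpinb2 overlapped in NT, BMP4 and BMP4-TGFB2, and those of Plaur and Plau overlapped in the 3 treated groups. Within single libraries, Plat stood above Serpinb2 in every NT and BMP4-TGFB2 library, and Serpinb2 above Plat in every BMP4 library. Plaur stood above Plau in every BMP4 library. Plau was the higher of the pair in replicate 2 with TGFB2 and with both ligands (Plau over Plaur 1.21 and 1.14). In NT, the lowest Plaur library (21 TPM) was above the highest Plau library (10.5 TPM).

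**Figure D1:**
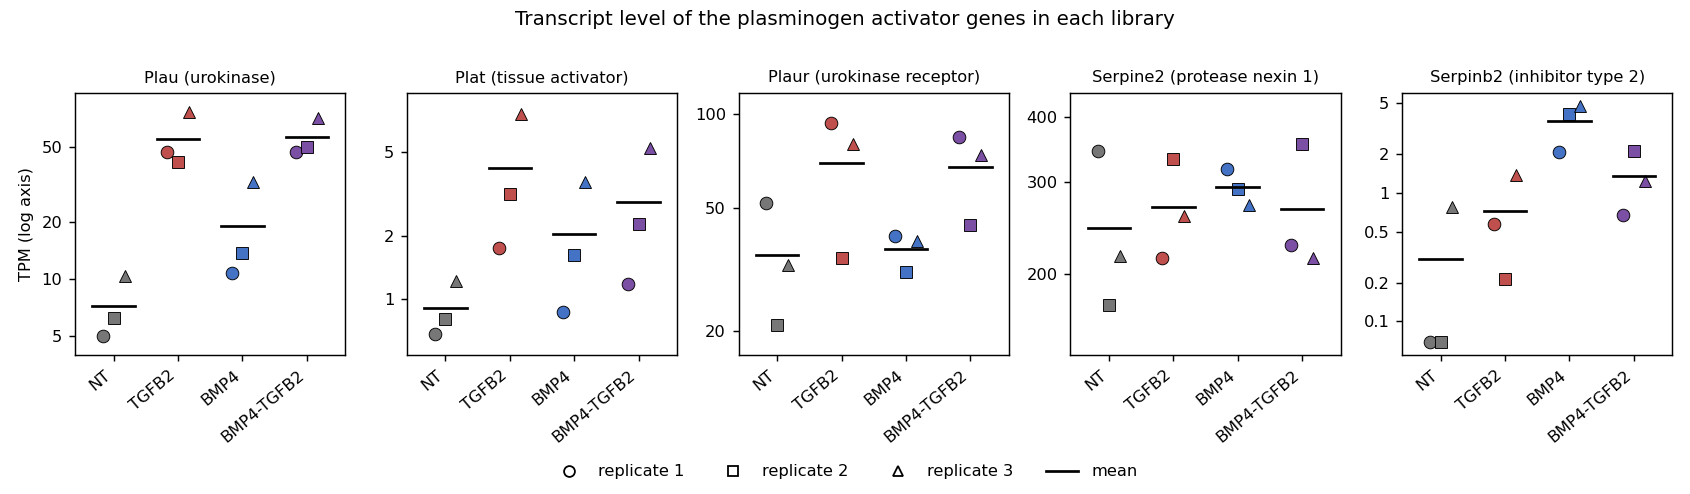
Transcript level of each gene (TPM, log axis, its own range in each panel) in the 3 libraries of each group; point shape gives the replicate number and the black line the mean. Plau stands at 41.7 TPM or more in all 6 libraries with TGFB2 and at 32.5 TPM or less in the others, while the Serpine2 points of all groups lie between 174 and 356 TPM.

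Plau encodes urokinase and lies on chromosome 14 from 20836660 to 20843385, plus strand (GRCm38, GENCODE M21, as are the other positions). Its level was 4.99, 6.25 and 10.5 TPM in the 3 NT libraries. With TGFB2 it was 47.3, 41.7 and 77 TPM. With BMP4 it was 10.8, 13.8 and 32.5 TPM. With both ligands Plau was high in every library, at 47.1, 50.1 and 71.5 TPM. The 6 libraries with TGFB2 all exceeded the 6 without, every BMP4 library exceeded every NT library, and the library numbered 3 was the highest of each group.

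Plat encodes tissue plasminogen activator, on chromosome 8 from 22757727 to 22782844, plus strand. It was scarce, with 39 to 64 counts in the NT libraries. Its NT level was 0.677, 0.806 and 1.22 TPM. TGFB2 libraries had 1.75, 3.18 and 7.66 TPM. BMP4 libraries had 0.865, 1.63 and 3.62 TPM, overlapping NT. With both ligands Plat stood at 1.18, 2.29 and 5.24 TPM. Libraries sharing a replicate number kept the same rank in all 4 groups, number 1 lowest and number 3 highest. Within each number the level with both ligands lay under that with TGFB2 alone.

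Plaur encodes the urokinase receptor, on chromosome 7 from 24462484 to 24475968, plus strand. Its level was 51.6, 21 and 32.7 TPM in NT. It was 93.4, 34.4 and 80.4 TPM with TGFB2. BMP4 libraries had 40.6, 31.1 and 39 TPM, inside the NT range. With both ligands the level was 84.5, 44 and 73.7 TPM. The library numbered 2 was the lowest of each group, and the TGFB2 and NT libraries overlapped because TGFB2 number 2 lay under NT number 1.

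Serpine2 encodes protease nexin 1, an inhibitor of thrombin and of both activators, on chromosome 1 from 79794197 to 79861180, minus strand. NT libraries had 345, 174 and 216 TPM. TGFB2 libraries had 215, 332 and 258 TPM. BMP4 libraries had 318, 292 and 271 TPM. With both ligands Serpine2 stood at 227, 356 and 214 TPM, and all 4 groups overlapped.

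Serpinb2 encodes plasminogen activator inhibitor type 2, a largely intracellular serpin, on chromosome 1 from 107511423 to 107535478, plus strand. Its reads were few: 3, 3 and 31 counts in NT, or 0.0683, 0.0682 and 0.772 TPM. TGFB2 libraries held 31, 8 and 59 counts, or 0.576, 0.212 and 1.39 TPM. BMP4 libraries held 104, 153 and 196 counts, or 2.09, 4.13 and 4.81 TPM. With both ligands Serpinb2 had 31, 70 and 47 counts, or 0.678, 2.13 and 1.24 TPM. All 3 BMP4 libraries were above every NT and TGFB2 library, and NT was uneven, its library 3 holding most of the group's reads. Serpinb10 shares exon bases with Serpinb2 on the same strand and was at 0 CPM (counts scaled to library size).

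TGFB2 alone was compared with NT to ask what that ligand does to each gene. Urokinase and tissue plasminogen activator rose, and the receptor and both serpins did not pass. The edgeR test called 2 of the 5 genes at an adjusted p under 0.05, where 22.3% of all genes tested were called. Plau was 7.57-fold higher, with a 95% interval from 3.84 to 14.9 (log2 fold change 2.92 ± 0.45 SE, edgeR adjusted p = 0.000892, n = 3 libraries a group). It passed in all 15 alternatives, with log2 fold changes from 2.63 to 3.27. Plat was 4.57-fold higher (interval 1.62 to 12.9; log2 fold change 2.19 ± 0.68, edgeR adjusted p = 0.0396). That call ended when NT replicate 1, 2 or 3 was left out (edgeR adjusted p = 0.0991, 0.123 and 0.0726), or TGFB2 replicate 2 or 3 (0.0584 and 0.16). Without TGFB2 replicate 3 the log2 fold change of Plat was 1.46. The Plat call also ended under limma-voom (adjusted p = 0.0822) and on log2 TPM (0.0768 and 0.0686). Plaur was 2-fold higher with an interval from 1.09 to 3.68 (edgeR adjusted p = 0.0974), and was higher in 3 of 3 replicate numbers. Plaur passed in 5 of 15 alternatives. These were without NT replicate 1 (edgeR adjusted p = 0.0468), without TGFB2 replicate 2 (0.0289), DESeq2 (0.0497), no filter (0.0205) and the replicate block. Its lowest log2 fold change was 0.666, without TGFB2 replicate 1 (edgeR adjusted p = 0.325). With the replicate number as a block, Plaur and Plat passed (edgeR adjusted p = 0.00128 and 0.000197), where 5799 of 15319 genes were called. That block was 1 fit over all 12 libraries and was not taken as a pairing in this comparison. Deviations of same-numbered NT and TGFB2 libraries correlated at 0.0805 to 0.304, with 6 of 6 libraries closest to their own number. Serpinb2 had a log2 difference of 1.28 ± 0.90 (edgeR adjusted p = 0.342), and one of 3.37 without NT replicate 3 (0.0286). Serpine2 differed by 1.12-fold, with an interval from 0.778 to 1.6 (edgeR adjusted p = 0.68).

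The BMP4 comparison with NT gave another member. Serpinb2 rose 12.5-fold, with an interval from 3.03 to 51.9 (log2 fold change 3.65 ± 0.94 SE, edgeR adjusted p = 0.0456, n = 3). It was the 1 member called of 5, where 5.44% of all genes were called. The call ended without NT replicate 1 or 2 (edgeR adjusted p = 0.0981 and 0.172), without BMP4 replicate 1, 2 or 3 (0.0647, 0.0983 and 0.116), without every library numbered 1 (0.119), and with only the groups compared (0.0743). Without NT replicate 3 it held, at a log2 fold change of 5.74. Plau was 2.72-fold higher (interval 1.42 to 5.21, edgeR adjusted p = 0.0793). It passed in 3 of 15 alternatives: DESeq2 (adjusted p = 0.00951), no filter on low counts (edgeR adjusted p = 0.00224) and the replicate block. Under limma-voom it did not pass (adjusted p = 0.144). Its log2 fold change ranged from 0.778 to 1.8 over the alternatives. The lowest was without BMP4 replicate 3 (edgeR adjusted p = 0.286). With the replicate number as a block, edgeR called 3 members: Serpinb2 (log2 fold change 4, adjusted p = 0.00678), Plau (1.36, 0.00144) and Plat (0.97, 0.0282). That blocked fit called 2356 of the 15319 genes tested. Without the block Plat differed by 1.15 ± 0.67 (edgeR adjusted p = 0.403). Plaur (1.09-fold, interval 0.597 to 2) and Serpine2 (1.26-fold, interval 0.875 to 1.8) did not pass.

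Both ligands together, against NT, gave the urokinase rise again. Plau was 7.91-fold higher, with an interval from 4 to 15.6 (log2 fold change 2.98 ± 0.45 SE, edgeR adjusted p = 0.000638, n = 3), and passed in all 15 alternatives (2.75 to 3.34). It was the 1 member called of 5, where 26.2% of all genes were called. Plat was 3.27-fold higher (interval 1.17 to 9.15, edgeR adjusted p = 0.0857) and higher in 3 of 3 replicate numbers. Its groups overlapped in TPM, by BMP4-TGFB2 replicate 1 and NT replicate 3, and did not overlap in CPM. Serpinb2 was 4.45-fold higher (interval 1.13 to 17.6, edgeR adjusted p = 0.103) and Plaur 2-fold higher (interval 1.09 to 3.68, edgeR adjusted p = 0.089). DESeq2 called these 3 genes (adjusted p = 0.0303, 0.0401 and 0.0465), as did edgeR with no filter. The replicate block, not taken as a pairing here either, called them as well (edgeR adjusted p = 0.00101, 0.0193 and 0.000803). That blocked fit called 6342 of the 15319 genes tested. Serpinb2 passed without NT replicate 3 (log2 fold change 4.24, edgeR adjusted p = 0.00845) and Plaur without NT replicate 1 (1.37, 0.0422). Of 15 alternatives, Plat passed in 3, Serpinb2 in 4 and Plaur in 4. Serpine2 differed by 1.11-fold (interval 0.775 to 1.59). These 3 comparisons share the NT libraries.

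**Figure D2:**
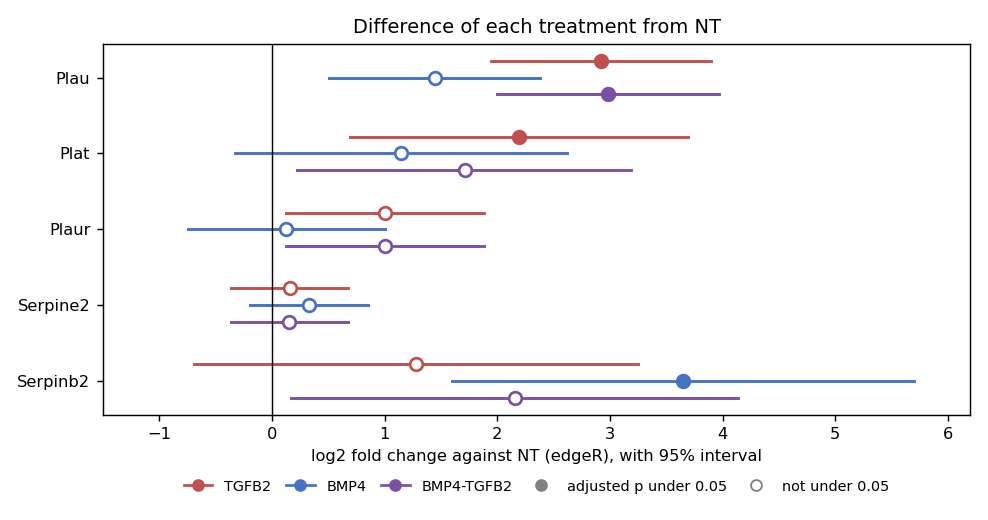
Log2 fold change of each gene in TGFB2, BMP4 and BMP4-TGFB2 against NT from edgeR (x axis), with 95% intervals; filled points have an adjusted p under 0.05. Plau is filled with TGFB2 and with both ligands, Plat with TGFB2, Serpinb2 with BMP4, and the Serpine2 intervals cross 0 in all 3.

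When BMP4 was added to TGFB2, no difference of urokinase or its receptor was detectable. Plau differed by 1.04-fold (interval 0.558 to 1.96), Plaur by 0.999-fold (0.547 to 1.82) and Serpine2 by 0.996-fold (0.694 to 1.43). Plat was 0.715-fold (0.267 to 1.91) and lower in 3 of 3 replicate numbers, by 0.55, 0.52 and 0.45 on the log2 CPM scale. Serpinb2 was 1.83-fold (0.504 to 6.67). No member was called (edgeR adjusted p = 1 for each), where 0% of all genes were called. At an unadjusted p under 0.05, edgeR had 516 genes and the blocked edgeR fit 1056. After adjustment DESeq2 called 51 genes, limma-voom 0 and the blocked edgeR fit 6. The intervals come from the fit without the block, and a change of any size within them is not excluded with 3 libraries a group.

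TGFB2 added to BMP4 gave a higher level of Plau than BMP4 alone, 2.91-fold with an interval from 1.53 to 5.53 (log2 fold change 1.54 ± 0.42 SE, edgeR adjusted p = 0.0436, n = 3). It was the 1 member called of 5, where 9.22% of all genes were called. The call ended without BMP4 replicate 1 or 2 (edgeR adjusted p = 0.127 and 0.173), without BMP4-TGFB2 replicate 1, 2 or 3 (0.0766, 0.0695 and 0.132), without every library numbered 1 (0.129), and with only the groups compared (0.0802). Plaur was 1.83-fold higher (interval 0.997 to 3.36, edgeR adjusted p = 0.216). It passed in 1 of 15 alternatives, the replicate block (log2 fold change 0.81, edgeR adjusted p = 0.0059). Serpinb2 was 0.355-fold (interval 0.099 to 1.27, edgeR adjusted p = 0.319) and lower in 3 of 3 replicate numbers. Plat and Serpine2 had adjusted p of 0.669 and 0.721 by edgeR.

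BMP4 and TGFB2 set directly against each other differed most in Serpinb2 and Plau, in opposite directions. Serpinb2 was 5.16-fold higher with BMP4 (interval 1.38 to 19.3, edgeR adjusted p = 0.133) and Plau 0.359-fold (0.189 to 0.683, edgeR adjusted p = 0.056). No member was called, where 7.83% of all genes were called. With the replicate block edgeR called 4: Serpinb2 (log2 fold change 2.46, adjusted p = 0.0309), Plau (-1.59, 0.000353), Plaur (-0.77, 0.00918) and Plat (-1.02, 0.0146). That blocked fit called 2999 of the 15319 genes tested. DESeq2 called Serpinb2 and Plau (adjusted p = 0.0369 and 0.0058). Plau also passed without BMP4 replicate 3 (log2 fold change -2.14, edgeR adjusted p = 0.0062). Of 15 alternatives, Serpinb2 passed in 5 and Plau in 7.

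The interaction asks whether the effect of one ligand differs when the other is present. For Plau, TGFB2 gave a log2 fold change of 2.92 without BMP4 and 1.54 with it, an interaction of -1.38 ± 0.59. For Serpinb2, BMP4 gave 3.65 without TGFB2 and 0.87 with it, an interaction of -2.77 ± 1.23. Unadjusted p was 0.0388 and 0.0447, and neither passed over all genes (edgeR adjusted p = 0.552 and 0.579), where 0.157% of genes were called. The other 3 genes had adjusted p from 0.717 to 0.989 by edgeR. With the replicate number as a block, which was not taken as a pairing over all 4 groups, edgeR called only Plau among the members (adjusted p = 0.0419). That blocked fit called 280 of the 15319 genes tested.

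The sum of squares of log2 CPM over the 12 libraries was divided among TGFB2, BMP4, their interaction, the replicate number and the rest. Over all genes the median shares were 23.4% for TGFB2, 5.23% for BMP4 and 21.6% for the replicate number. Plau lay mostly with TGFB2, at 74.8%, and 6.61% of genes had a larger TGFB2 share. Serpinb2 lay with BMP4, at 53.4%, a share exceeded by 1.36% of genes. Plaur and Plat were divided between TGFB2 (45.4% and 35.5%) and the replicate number (47.2% and 46.9%). Serpine2 had 70% in the rest. Leaving group means aside, Plau and Plat deviated together across the 12 libraries (Pearson r = 0.819), while Plau and Plaur did so less (r = 0.122); libraries share depth and replicate number, and these values are descriptions.

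**Figure D3:**
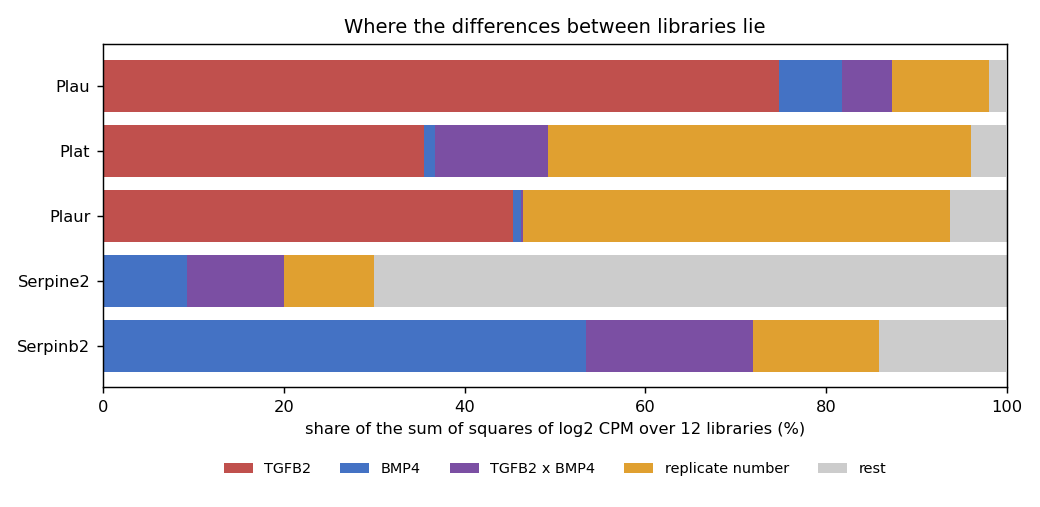
Share (%, x axis) of each gene's sum of squares of log2 CPM over 12 libraries that lies with TGFB2, BMP4, their interaction, the replicate number and the rest. TGFB2 holds 74.8% for Plau, BMP4 53.4% for Serpinb2, the replicate number 47.2% for Plaur and 46.9% for Plat, and the rest 70% for Serpine2.

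Compared per length (a ratio of TPM), protease nexin 1 outnumbered urokinase 69.2, 27.9 and 20.7 times in the NT libraries. The ratio was 4.54, 7.97 and 3.36 with TGFB2. It was 29.6, 21.1 and 8.33 with BMP4. With both ligands it was 4.82, 7.12 and 3, and the 6 libraries with TGFB2 all lay under the 6 without. Urokinase transcripts per receptor transcript were 0.0966, 0.297 and 0.32 in NT and 0.506, 1.21 and 0.957 with TGFB2. These are RNA ratios and give no protein or enzyme activity.

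Other genes of plasminogen activation were taken from 7 lists of 69 genes, of which 44 were tested. Plg, the plasminogen gene, was at 0 in NT and at most 0.0595 TPM in the mean of the other groups. Of the 44, 17 rose and 1 fell with TGFB2 (median log2 fold change 0.57, against 0.01 over all genes), 8 rose and 1 fell with BMP4 (0.31), and 18 rose and 5 fell with both (0.58). That is 18, 9 and 23 of 44 called, where 22.3%, 5.44% and 26.2% of all genes were called in the same comparisons. The shares were not tested against each other, and the lists were chosen with earlier results of these data known. With the replicate block 17 genes passed with BMP4, where that fit called 2356 of all 15319 genes. Without NT replicate 2 the number passing was 12 with TGFB2, 1 with BMP4 and 14 with both; with BMP4 it was 5 without BMP4 replicate 2 and 2 without BMP4 replicate 3.

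Of integrins and other partners of the urokinase receptor, 5 of 8 tested rose with TGFB2, 3 with BMP4 and 6 with both, and none fell, where 22.3%, 5.44% and 26.2% of all genes were called. Itgb3, the beta 3 chain of the vitronectin receptor, rose by 6.07 ± 0.62 (log2) with TGFB2 and 2.69 ± 0.58 with BMP4 (edgeR adjusted p = 7.3e-05 and 0.0205). Itgb5 rose by 1.94 and 0.96, Itgav by 0.84 and 0.70, and Itga5, a fibronectin receptor chain, by 2.06 with TGFB2. Vtn, the matrix ligand vitronectin, was not tested and had at most 0.248 TPM in a group mean. Of the 9 tested genes listed for the clearance of blocked proteases, Lrp1 rose by 2.34 ± 0.25 with TGFB2, 1.10 with BMP4 and 2.25 with both. The heparan sulfate proteoglycan Sdc1 rose by 1.94, 1.86 and 2.60. Igf2r fell by 0.82 with TGFB2 and by 0.70 with both ligands, and with both Sdc4 and Vldlr fell as well (edgeR adjusted p = 0.0476 and 0.0496).

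Of the substrates, 7 of 13 tested rose with TGFB2, 1 rose and 1 fell with BMP4, and 8 rose with both, beside the same shares of all genes (22.3%, 5.44% and 26.2%). Fn1, the matrix protein fibronectin, rose by 3.40 ± 0.48 with TGFB2, 2.27 with BMP4 and 3.22 with both. The metalloproteinases Mmp3 and Mmp9 rose with TGFB2 by 4.07 ± 0.89 and 7.35 ± 1.66, and with both by 4.87 and 7.5 (edgeR adjusted p from 0.00269 to 0.0088). Mmp9 was very uneven between libraries, with a mean of 102 TPM (SD 129) with TGFB2 and 108 TPM (SD 130) with both. Pdgfc, a growth factor that tissue plasminogen activator can cut, fell by 0.41 with BMP4 (edgeR adjusted p = 0.0332). None of the 5 tested genes for plasminogen and its cell surface receptors passed in these 3 comparisons; S100a10 and Anxa2, which hold plasminogen at the membrane, had NT means of 1390 and 1070 TPM. Of 5 proteases that act on pro-urokinase or plasminogen, Hpn, the membrane protease hepsin, fell by 1.99 ± 0.45 with both ligands. Of other inhibitors, Serpini1 (neuroserpin) was the 1 tested, and rose by 2.26 ± 0.51 with TGFB2 (edgeR adjusted p = 0.00872). In the Serpinb2 cluster 3 of 11 serpins were tested. Serpinb11, which had at most 0.73 TPM in a group mean, fell by 2.55 ± 0.67 with both ligands (edgeR adjusted p = 0.0162). Serpinb8 rose by 0.75, 1.19 and 0.94 and Serpinb5, also called maspin, by 0.74, 0.65 and 0.98 with TGFB2, BMP4 and both.

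**Figure D4:**
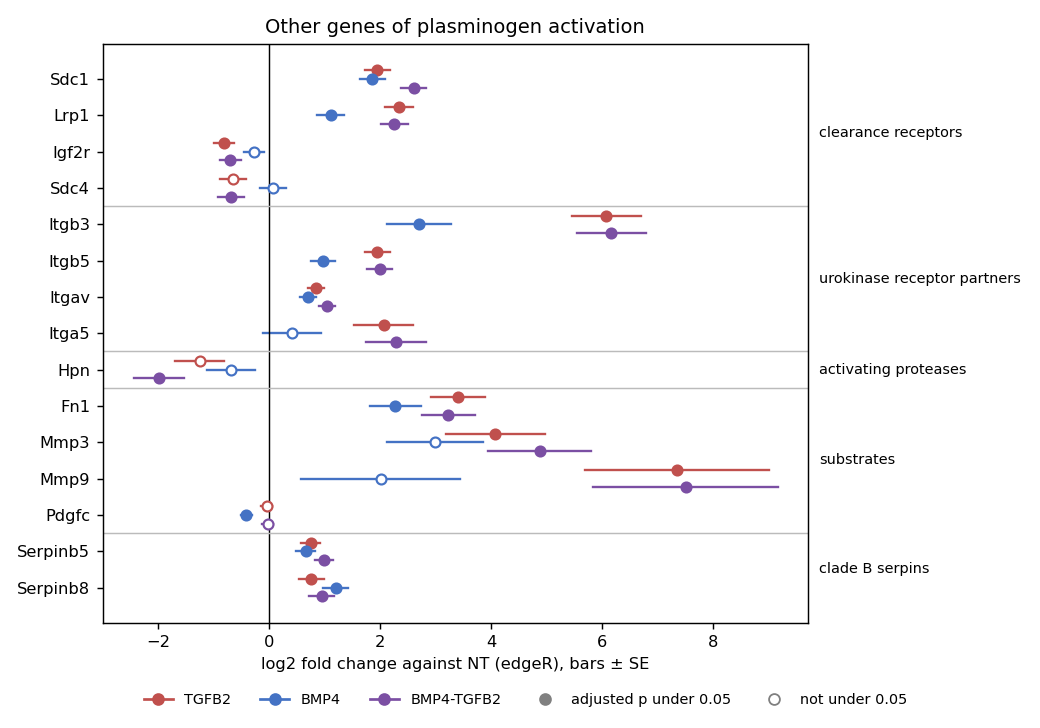
Log2 fold change against NT (x axis, edgeR, bars ± SE) of the named genes of plasminogen activation in TGFB2, BMP4 and BMP4-TGFB2, grouped by role; filled points have an adjusted p under 0.05. Itgb3 and Mmp9 stand at 6.07 and 7.35 with TGFB2, Igf2r and Hpn lie below 0 in all 3 comparisons.

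Of 6 fibroblast markers tested, 4 rose with TGFB2, where 22.3% of all genes were called. Dcn, at 2.75 TPM in NT and 2.77 TPM with TGFB2, and Lum did not pass (edgeR adjusted p = 0.985 and 0.89). The summed level of the list was 6.87 to 12.1 TPM with TGFB2 against 1.89 to 7.14 TPM in NT. It was 2.07 to 11.6 with BMP4 and 4.67 to 12.7 with both. Col1a1 and Pdgfra had means of 1.85 and 0.863 TPM with TGFB2, and no marker of this list was at 0 in all libraries of a group. Summed leukocyte markers were 411 to 529 TPM in NT, 116 to 190 with TGFB2, 269 to 365 with BMP4 and 78.8 to 113 with both. Of 6 leukocyte markers tested, Cd14 fell with TGFB2, from a mean of 457 to 131 TPM, and Csf1r and Laptm5 rose (edgeR adjusted p = 0.00163 and 0.038). The share of all genes called in that comparison was again 22.3%. Csf1r also rose with BMP4 and with both (0.0292 and 0.000821), with at most 2.33 TPM in a group mean. The part of fibroblast and leukocyte markers in these results was not tested.

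Across the 12 libraries, the genes with the pattern most like each member were found among 10172 genes by Pearson's r of log2 CPM. They were Acsbg1, Tpbg and Rnf19b for Plau (0.993, 0.993 and 0.991). For Plat they were Gpx8, Cnn2 and Spn (0.964, 0.962 and 0.961). For Plaur they were Sinhcaf, Smim15 and Fam110c (0.955, 0.952 and 0.951). Serpinb2 was closest to Rras2, Clic4 and Impad1 (0.91, 0.906 and 0.903), and Serpine2 to Thsd7a, Msrb3 and Casp12 (0.914, 0.888 and 0.882). The values are descriptions of libraries that share group and depth.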

How the data were processed

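The 12 libraries were made from poly(A) RNA and sequenced as read pairs. The submitters' processing notes name Salmon 1.2.1, STAR 2.7.5b, bcl2fastq and the build GRCm38.p6, with no role given for each. The authors deposited estimated counts per gene that need not be whole (82.9% were), TPM values, and normalized counts, a signal equal to the estimated count divided by a size factor per library (0.844 to 1.24), which was checked and not used for tests. The deposited sample sheet lists 1 batch and unstranded counting for all 12 libraries.

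Counts were rounded (changing the total by 0.000361%) and filtered with filterByExpr (minimum count 10), which kept 15319 genes holding 99.9% of counts. They were scaled by TMM (0.971 to 1.03) and fitted in edgeR 4.0.16 (R 4.3.3) with the quasi-likelihood test, 1 model of 4 groups over all 12 libraries, with 7 contrasts. Benjamini-Hochberg adjustment ran over all genes tested, and genes were called at 0.05. Fold intervals are at 95%. Log2 CPM used a prior count of 2. The common biological coefficient of variation was 0.299. The fit was tested on simulated data with known changes in TGFB2 against NT. It called 30 of 96 genes changed by 1 (log2), 71 of 97 changed by 2 and 7 of 14697 unchanged ones. Far fewer genes were changed there than were called in the data, so these shares need not apply to the data. Alternatives were DESeq2 1.42.0, limma 3.58.1 (voom, and log2 of TPM + 0.5 or + 0.1), upper-quartile factors, no filter, the replicate number as a block, only the groups compared, every library numbered 1 left out, and each library left out.

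Same-numbered libraries deviated together, with every correlation of deviations over 0.1, for NT and BMP4 (0.162 to 0.444), TGFB2 and BMP4 (0.15 to 0.346), TGFB2 and BMP4-TGFB2 (0.229 to 0.505), and BMP4 and BMP4-TGFB2 (0.146 to 0.348). The labels do not say what the number marks. No replicate pair was within sampling noise (lowest chi-square per degree of freedom 32).

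The members and gene lists were chosen with earlier results of these data known. A list gene was named if it passed in a comparison against NT and its average log2 CPM was 2 or more, at most 4 a list by smallest p, or to say that it was near 0; Serpini1, Serpinb11, Vldlr, S100a10 and Anxa2 were added after their values were seen. For likeness, the 3 genes with the highest r were named. A further inhibitor of the system is not reported here.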

Additional observations from a re-analysis of the deposited data

How the results depend on the processing

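Of 550 alternative values of the 5 genes over 7 comparisons, 464 kept direction and side of the threshold, 22 no longer passed, 37 newly passed and 27 changed sign, 0 of them past the threshold in either fit. Members called with TGFB2 against NT numbered 3 under DESeq2, with no filter and with the replicate block, and 1 under limma-voom and both TPM fits, against 2, and 1 to 2 with a library left out. With BMP4 against NT they numbered 2 under DESeq2 and with no filter, 3 with the replicate block, 0 without every library numbered 1, 0 with only the groups compared, and 0 to 1 with a library left out. With both ligands against NT they numbered 4 under DESeq2, no filter and the replicate block, and 1 to 2 with a library left out. With BMP4-TGFB2 against BMP4 they numbered 2 with the block, 0 without every library numbered 1, 0 with only the groups compared, and 0 to 1 with a library left out. For BMP4 against TGFB2 they numbered 2 under DESeq2, no filter, limma-voom and log2(TPM + 0.5), 1 with log2(TPM + 0.1), 4 with the block, and 0 to 1 with a library left out. In the interaction the block called 1, Plau (-1.28, edgeR adjusted p = 0.0419). List genes called were 29 with TGFB2 and 17 with BMP4 under the block, where it called 5799 and 2356 of all 15319 genes. With a library left out they numbered 1 to 6 with BMP4 and 14 to 21 with both ligands. Same-numbered NT and TGFB2 libraries correlated at 0.0805 to 0.304 and NT and BMP4-TGFB2 libraries at 0.0256 to 0.233, not all over 0.1, so the block was not taken as a pairing there; 6 of 6 and 4 of 6 libraries correlated best with their own number, a hint from the data and not from the design. There the block also called Plaur with TGFB2 (0.96, edgeR adjusted p = 0.00128), and Serpinb2 (2.59, 0.0193), Plaur (1, 0.000803) and Plat (1.49, 0.00101) with both; in the comparisons not listed here or in the report the block changed no call. Sign changes concerned small differences. Plaur in BMP4-TGFB2 against TGFB2 was 0.0022 with no filter, 0.056 under limma-voom, 0.027 and 0.028 on TPM, 0.048 with the block, 0.098 without every library numbered 1, and -0.33 to 0.33 with a library left out. Serpine2 in BMP4 against TGFB2 was -0.045 without every library numbered 1. With a library left out, Serpine2 ranged from -0.022 to 0.47 with TGFB2, -0.065 to 0.46 with both ligands and -0.22 to 0.17 in BMP4-TGFB2 against TGFB2. In that last comparison Plau ranged from -0.17 to 0.35 and Plat from -1.27 to 0.25. Plaur ranged from -0.11 to 0.49 with BMP4 and from -0.50 to 0.21 in the interaction, and Plat from -0.23 to 1.24 in BMP4-TGFB2 against BMP4. Over all genes, calls ranged across alternatives from 2011 to 5799 with TGFB2 (3423 in the fit reported), 292 to 2356 with BMP4 (833), 2519 to 6342 with both (4007), 0 to 51 for BMP4-TGFB2 against TGFB2 (0), 655 to 3476 against BMP4 (1412), 558 to 2999 for BMP4 against TGFB2 (1200) and 0 to 298 for the interaction (24). The cause of these differences was not tested, beyond the fewer libraries in the fits that leave some out. Depth limits Serpinb2 and Plat, whose lowest libraries held 3 and 39 counts.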

Other observations

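The nearest protein-coding gene on each side of every member was examined by a rule chosen after the files were read. Cadm4, a cell adhesion gene that lies 6.05 kb after Plaur, rose by 1.95 ± 0.22 (log2) with TGFB2 and 1.10 ± 0.21 with BMP4 (edgeR adjusted p = 0.0001263 and 0.01294), and also with both ligands (4.887e-05). Camk2g, 42.6 kb before Plau, rose by 0.38 with TGFB2 and 0.36 with both (edgeR adjusted p = 0.03066 and 0.03129), and Vcl, on the other side of Plau, did not pass. Ap3m2, 4.51 kb after Plat, differed by 0.75 with TGFB2 (edgeR adjusted p = 0.08433). Mrpl44 beside Serpine2 and Ikbkb beside Plat did not pass in any comparison against NT, while Fam124b, Serpinb7 and Irgc1 had too few reads to be tested.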
